A study of Homo sapiens with 3 samples.

Results

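The genes described here are the Wnt ligands, the proteins that secrete them, their receptors and co-receptors, their antagonists and the R-spondin module. They were picked by matching gene symbols in the deposited tables; the matching used no measured value, but the family was chosen with earlier results of these data known. The rule found 59 genes among 18345. They comprise 19 Wnt ligands, 2 genes of ligand secretion, 10 Frizzled receptors, 5 co-receptors and other receptors, 14 antagonists and 9 genes of the R-spondin module.

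RNA-seq was available for CD105high, CD105low and CD105neg cells, 1 library each, all derived from the human embryonic stem cell line H1, which is an established line. The labels name no engineered allele. All 3 groups shared the same culture: a first stage of 2 days with 40 ng/ml activin A plus 50 ng/ml BMP4, and a second of 3 days with 40 ng/ml VEGF plus 50 ng/ml bFGF, although the labels date the cells to day 4. No Wnt protein or Wnt inhibitor is named among the added factors. The labels call the cells HEPs. They were CD31+CD34+ and were separated by surface CD105 (endoglin), a co-receptor for TGF-beta and BMP ligands. Because each group had a single library from 1 cell line, there is no spread between replicates, no difference below has a replicate check, and no p-value can be given.

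Wnt proteins are lipid-modified signals that bind Frizzled receptors on the cell surface. With the co-receptors LRP5 and LRP6 they stop the destruction complex from degrading beta-catenin, which then acts with TCF and LEF factors in the nucleus. With the receptor kinases ROR1, ROR2 and RYK they act without beta-catenin, on polarity and movement. In human pluripotent stem cells Wnt signalling takes part in the formation of mesoderm, and in endothelium FZD4 serves in the growth of retinal vessels as the receptor for the non-Wnt ligand norrin.

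The values were taken to be FPKM, in which fragment numbers are corrected for sequencing depth and for the length of the transcript, so levels can be set side by side between genes. They summed to between 265618 and 289229 over all genes. The spacing of the lowest values gave a relative depth of 1.04 for CD105high and 1.11 for CD105low, with CD105neg at 1, if the values are FPKM. Read totals were not available, so values near 0 carry no counting interval. ENG, which encodes CD105, stood at 13.8 FPKM in CD105high, 8.56 FPKM in CD105low and 2.12 FPKM in CD105neg, PECAM1 (CD31) at 50.1 FPKM in CD105high, 41.9 FPKM in CD105low and 29.9 FPKM in CD105neg, and CD34 at 43.2 FPKM in CD105high, 39.2 FPKM in CD105low and 20.99 FPKM in CD105neg. For CD105neg the column heading reads CD105 positive, whereas its title, which was followed here, gives the negative group. The gate genes were present in all 3 libraries, and all were lowest in CD105neg. Over 12 endothelial markers the summed level was 1953 FPKM in CD105high, 1898 FPKM in CD105low and 1412 FPKM in CD105neg. Over 14 mesenchymal and mural markers it was 453 FPKM in CD105high, 525 FPKM in CD105low and 531 FPKM in CD105neg, with DCN below 0.1 FPKM in all 3, and over 13 erythroid and megakaryocyte markers 22.7 FPKM in CD105high, 36.3 FPKM in CD105low and 80.3 FPKM in CD105neg. In bulk RNA, fewer cells of a type and less RNA per cell cannot be told apart.

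Of the 59 genes, 28 had a mean over the 3 libraries of at least 1 FPKM and are called measured. They were 4 of 19 ligands, both secretion genes, 8 of 10 Frizzled receptors, all 5 co-receptors and other receptors, 7 of 14 antagonists and 2 of 9 genes of the R-spondin module. Receptors were thus detected above 1 FPKM more broadly than ligands. Of the family, 9 genes reached 10 FPKM in any library: WNT11, WLS, FZD4, FZD7, LRP6, RYK, SFRP1, DKK3 and LGR4. At the other end, 15 genes stayed below 0.1 FPKM in all 3 libraries, and WNT1, WNT10A, WNT10B and RSPO1 were listed at 0 in each.

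**Figure D1:**
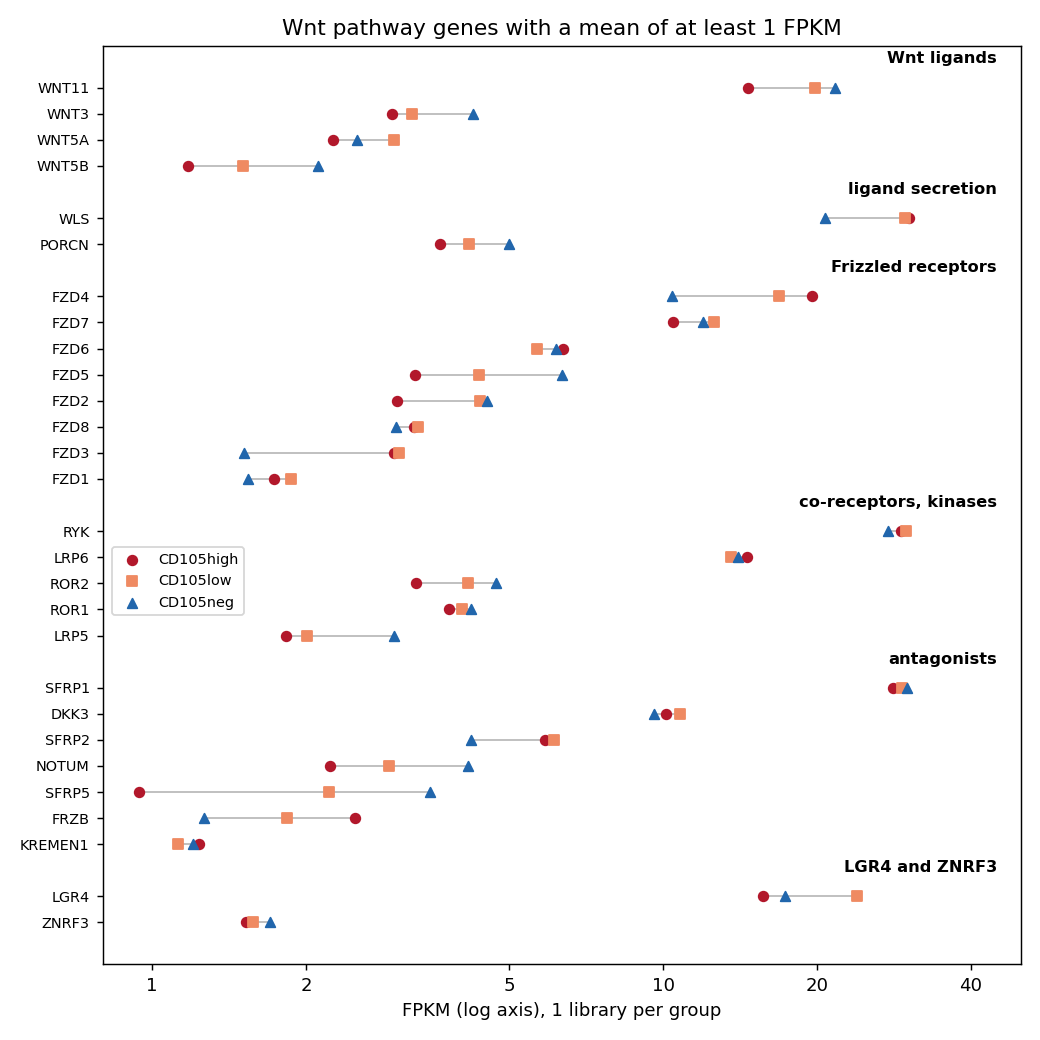
FPKM (log axis) of the 28 Wnt pathway genes with a mean of at least 1 FPKM, by role, with 1 point per library: CD105high (circles), CD105low (squares) and CD105neg (triangles), and a line from the lowest to the highest. SFRP1, RYK, LRP6 and KREMEN1 have points close together, whereas SFRP5, FZD4, FZD5, FZD3, FRZB and NOTUM are spread widest.

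The ligand transcripts were dominated by WNT11, a ligand known for beta-catenin-independent signalling in cell movement and for its part in heart formation. WNT11 (ENSG00000085741.12) stood at 14.7 FPKM in CD105high, 19.8 FPKM in CD105low and 21.7 FPKM in CD105neg. It made up 63.6%, 67.2% and 68.4% of the summed FPKM of all 19 ligand genes in those libraries. The level was lowest in CD105high, with a log2 fold change against CD105neg of -0.54 on the value + 1 scale, short of 1.5-fold, which is 0.585 on the log2 scale. All counts at 1.5-fold below are on this value + 1 scale, on which the ratio of a low gene is reduced. The order of the libraries was the same without WNT11: the other 18 ligands summed to 8.40 FPKM in CD105high, 9.64 FPKM in CD105low and 10.1 FPKM in CD105neg.

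WNT3, a ligand of the beta-catenin branch needed for mesoderm formation in the mouse embryo, stood at 2.94 FPKM in CD105high, 3.22 FPKM in CD105low and 4.25 FPKM in CD105neg. WNT5B stood at 1.17 FPKM in CD105high, 1.51 FPKM in CD105low and 2.11 FPKM in CD105neg, the widest ratio among the measured ligands (0.557 in CD105high relative to CD105neg). WNT5A, the main ligand of ROR2, departed from this order, with 2.26 FPKM in CD105high, 2.98 FPKM in CD105low and 2.52 FPKM in CD105neg. All 4 measured ligands were therefore lower in CD105high than in CD105neg, as were 6756 of all 11056 measured genes. None was lower by 1.5-fold on the value + 1 scale, although WNT5B was past it as a plain ratio. The median log2 fold change of the 4 ligands was -0.46, against -0.09 over all measured genes. After centring on that median all 4 stayed below 0, with WNT5A at -0.02.

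The other 15 ligands fell below the filter, and WNT9B was the highest of them. WNT9B, known from kidney development in the mouse, had 1.28 FPKM in CD105high, 0.964 FPKM in CD105low and 0.404 FPKM in CD105neg. Its order was the opposite of that of WNT11, and its log2 fold change of CD105high against CD105neg was 0.70. WNT2B, at 0.428 FPKM in CD105high, 0.531 FPKM in CD105low and 0.428 FPKM in CD105neg, has 21.2% of its annotated exonic bases within ST7L, and the libraries do not mark the strand. WNT9A, WNT6, WNT16 and WNT8A lay between 0.0371 and 0.147 FPKM in every library. WNT4, WNT3A, WNT2, WNT7A, WNT8B and WNT7B reached at most 0.0193 FPKM in any library.

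The genes of ligand secretion had opposite orders. WLS, the carrier that takes Wnt proteins to the cell surface, stood at 30.3 FPKM in CD105high, 29.8 FPKM in CD105low and 20.7 FPKM in CD105neg. It was among the most abundant genes of the family, and the CD105neg library stood apart from the other two. The log2 fold change of CD105high against CD105neg was 0.53, just short of 1.5-fold, and after centring 0.62, past it. PORCN, the enzyme that adds the lipid to Wnt proteins, was highest in CD105neg, at 3.66 FPKM in CD105high, 4.17 FPKM in CD105low and 5.0 FPKM in CD105neg.

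Frizzled receptors differed among themselves. FZD4 was the most abundant in CD105high and CD105low and FZD7 in CD105neg. FZD4 (ENSG00000174804.3) stood at 19.5 FPKM in CD105high, 16.8 FPKM in CD105low and 10.4 FPKM in CD105neg. Its log2 fold change against CD105neg was 0.85 in CD105high and 0.64 in CD105low. It held 37.5%, 31.5% and 22.3% of the summed Frizzled FPKM in CD105high, CD105low and CD105neg. The FZD4 value is uncertain, because the libraries do not mark the strand and another gene overlaps it. Of its annotated exonic bases, 18.9% (1399 bases) lie within PRSS23, a protease gene on the other strand. PRSS23 stood at 38.4 FPKM in CD105high, 24.2 FPKM in CD105low and 11.1 FPKM in CD105neg (log2 fold change of CD105high against CD105neg 1.70). Its part in the FZD4 values was not tested. The summed level of endothelial markers moved in the same direction as FZD4 between CD105high and CD105neg, and its part was not tested either.

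FZD3, a receptor known for axon guidance in the mouse, was also higher outside CD105neg, at 2.97 FPKM in CD105high, 3.04 FPKM in CD105low and 1.51 FPKM in CD105neg. The CD105high and CD105low libraries were nearly equal (log2 fold change -0.03), so the difference lay between CD105neg and both others. FZD5 (ENSG00000163251.3) showed the reverse, at 3.27 FPKM in CD105high, 4.35 FPKM in CD105low and 6.33 FPKM in CD105neg. Its log2 fold change was -0.78 for CD105high against CD105neg and -0.45 for CD105low against CD105neg. FZD2 stood at 3.01 FPKM in CD105high, 4.39 FPKM in CD105low and 4.52 FPKM in CD105neg, so that here CD105high was the library apart.

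The remaining Frizzled genes were close to level. FZD7 stood at 10.5 FPKM in CD105high, 12.6 FPKM in CD105low and 11.95 FPKM in CD105neg. FZD6 lay between 5.66 and 6.36 FPKM, FZD8 between 3.00 and 3.32 FPKM and FZD1 between 1.54 and 1.87 FPKM. FZD9 and FZD10 fell below the filter, at 0.832 to 0.933 FPKM and 0.306 to 0.502 FPKM. All 10 Frizzled genes together summed to 52.0 FPKM in CD105high, 53.4 FPKM in CD105low and 46.6 FPKM in CD105neg. Without FZD4 the order was different, with 32.5 FPKM in CD105high, 36.6 FPKM in CD105low and 36.2 FPKM in CD105neg.

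**Figure D2:**
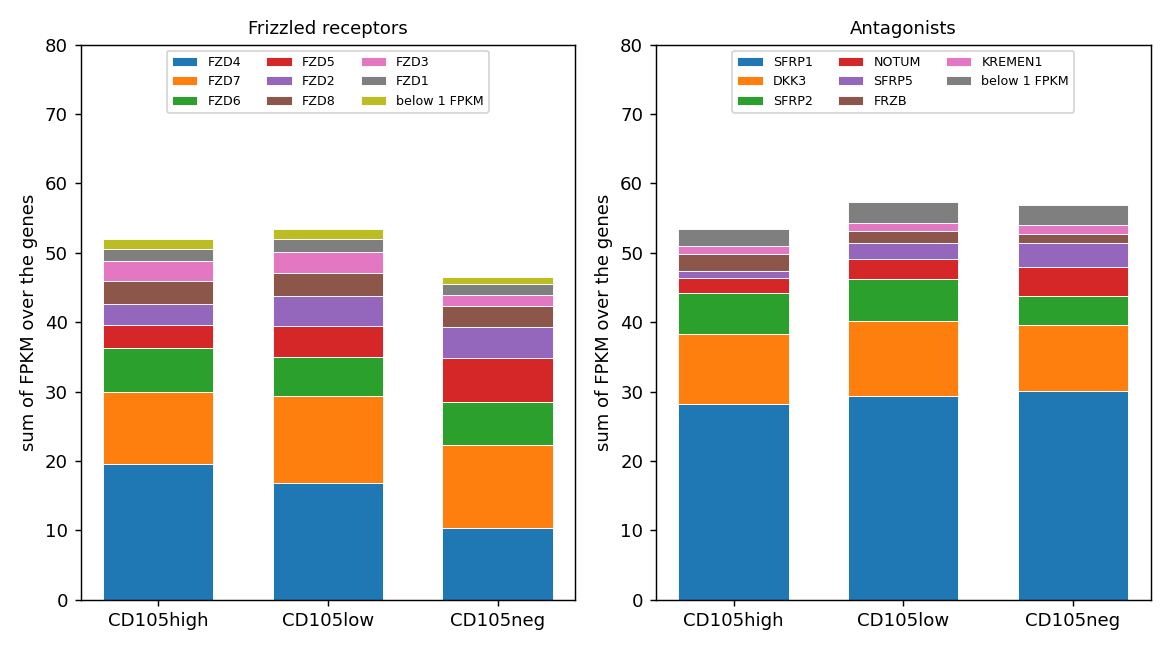
Summed FPKM of the 10 Frizzled genes (left) and the 14 antagonist genes (right) in each library, with 1 coloured segment per measured gene and 1 for all genes with a mean below 1 FPKM. FZD4 (lowest segment, left) takes 37.5% of the Frizzled sum in CD105high and 22.3% in CD105neg, while SFRP1 (lowest segment, right) takes between 51.2% and 52.7% of the antagonist sum in every library.

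Among the co-receptors and receptor kinases none reached 1.5-fold on the value + 1 scale in any comparison. LRP6, the co-receptor that starts beta-catenin signalling, stood at 14.6 FPKM in CD105high, 13.6 FPKM in CD105low and 14.0 FPKM in CD105neg. Its homologue LRP5 was lower in level and showed a wider spread, at 1.83 FPKM in CD105high, 2.01 FPKM in CD105low and 2.97 FPKM in CD105neg (log2 fold change of CD105high against CD105neg -0.49, with a plain ratio of 0.615). RYK, a Wnt-binding receptor with an inactive kinase domain, lay between 27.5 and 29.9 FPKM and ROR1 between 3.81 and 4.20 FPKM. ROR2 stood at 3.28 FPKM in CD105high, 4.16 FPKM in CD105low and 4.71 FPKM in CD105neg.

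Antagonists held the gene of the family with the largest ratio of highest to lowest library among the 28 measured genes (3.72). SFRP5 (ENSG00000120057.4), a secreted Frizzled-like protein that binds Wnt ligands, stood at 0.943 FPKM in CD105high, 2.22 FPKM in CD105low and 3.50 FPKM in CD105neg. CD105low lay midway on the FPKM scale, and the log2 fold change against CD105neg was -1.21 in CD105high and -0.48 in CD105low, while CD105high relative to CD105low gave -0.73. FRZB (ENSG00000162998.4), another secreted protein of that family, had the opposite order, at 2.49 FPKM in CD105high, 1.83 FPKM in CD105low and 1.26 FPKM in CD105neg (log2 fold change of CD105high against CD105neg 0.62). NOTUM (ENSG00000185269.11), the enzyme that removes the lipid from Wnt proteins and a known target of beta-catenin signalling, stood at 2.23 FPKM in CD105high, 2.90 FPKM in CD105low and 4.15 FPKM in CD105neg (-0.67). After centring, NOTUM was at -0.582, no longer past 1.5-fold (0.585).

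The most abundant antagonist differed little between the libraries. SFRP1, at 28.1 FPKM in CD105high, 29.3 FPKM in CD105low and 30.0 FPKM in CD105neg, had a log2 fold change of CD105high against CD105neg of -0.09, equal to the median of all measured genes to 2 decimals. DKK3, a divergent Dickkopf protein, lay between 9.58 and 10.8 FPKM. SFRP2 stood at 5.86 FPKM in CD105high, 6.12 FPKM in CD105low and 4.20 FPKM in CD105neg, and KREMEN1, a receptor for Dickkopf proteins, between 1.12 and 1.23 FPKM. DKK1, which blocks LRP5 and LRP6 and is another known target of the pathway, was below the filter at 0.639 FPKM in CD105high, 0.662 FPKM in CD105low and 0.499 FPKM in CD105neg. DKK2 lay between 0.770 and 0.962 FPKM, and APCDD1, a membrane-bound inhibitor, between 0.584 and 0.846 FPKM. KREMEN2 stood at 0.341 FPKM in CD105high, 0.693 FPKM in CD105low and 0.821 FPKM in CD105neg, with 13.8% of its exonic bases within PKMYT1. SFRP4, DKK4 and WIF1 stayed below 0.1 FPKM.

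In the R-spondin module LGR4 was the only abundant gene, and its highest value was in CD105low. LGR4, a receptor for R-spondins, stood at 15.7 FPKM in CD105high, 23.9 FPKM in CD105low and 17.3 FPKM in CD105neg. The ratio of CD105high to CD105low was 0.656, and the log2 fold change on the value + 1 scale, -0.577, was just short of 1.5-fold (0.585). ZNRF3, the membrane E3 ligase that removes Frizzled receptors, was nearly level at 1.53 FPKM in CD105high, 1.57 FPKM in CD105low and 1.70 FPKM in CD105neg. The stem cell receptor gene LGR5 was below the filter, with 0.523 FPKM in CD105high, 0.981 FPKM in CD105low and 1.07 FPKM in CD105neg. RNF43, the homologue of ZNRF3, lay between 0.132 and 0.269 FPKM, and 74.1% of its sampled sequence also occurs in other annotated genes. RSPO2, RSPO3 and RSPO4, which encode the R-spondin ligands, lay between 0.0792 and 0.280 FPKM, and LGR6 did not exceed 0.0599 FPKM.

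The counts of the family were small, and in CD105high against CD105neg both lay above the share over all measured genes. For CD105high against CD105neg, 3 of the 28 measured genes (FZD4, FZD3 and FRZB) were at least 1.5-fold higher on the value + 1 scale, where 5.57% of all 11056 measured genes were. At that share 1.56 of 28 genes would be. A further 3 (SFRP5, FZD5 and NOTUM) were at least 1.5-fold lower, where 6.68% of all measured genes were, which for 28 genes is 1.87. The median log2 fold change was -0.10 for the family and -0.09 for all measured genes. After centring, 4 were higher, WLS included, and 2 were lower. These counts are too small to read a shift of the family in either direction.

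For CD105low against CD105neg, 2 of 28 were higher (FZD4 and FZD3), against 4.11% of all measured genes, and 0 were lower, against 1.99%. The median was -0.04 for the family and 0.02 for all measured genes. This comparison and that of CD105high share the same CD105neg library. For CD105high against CD105low, 0 of 28 were higher, against 1.15% of all measured genes, and 1 was lower (SFRP5), against 2.2%. The median was -0.08 for the family and -0.10 for all measured genes.

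**Figure D3:**
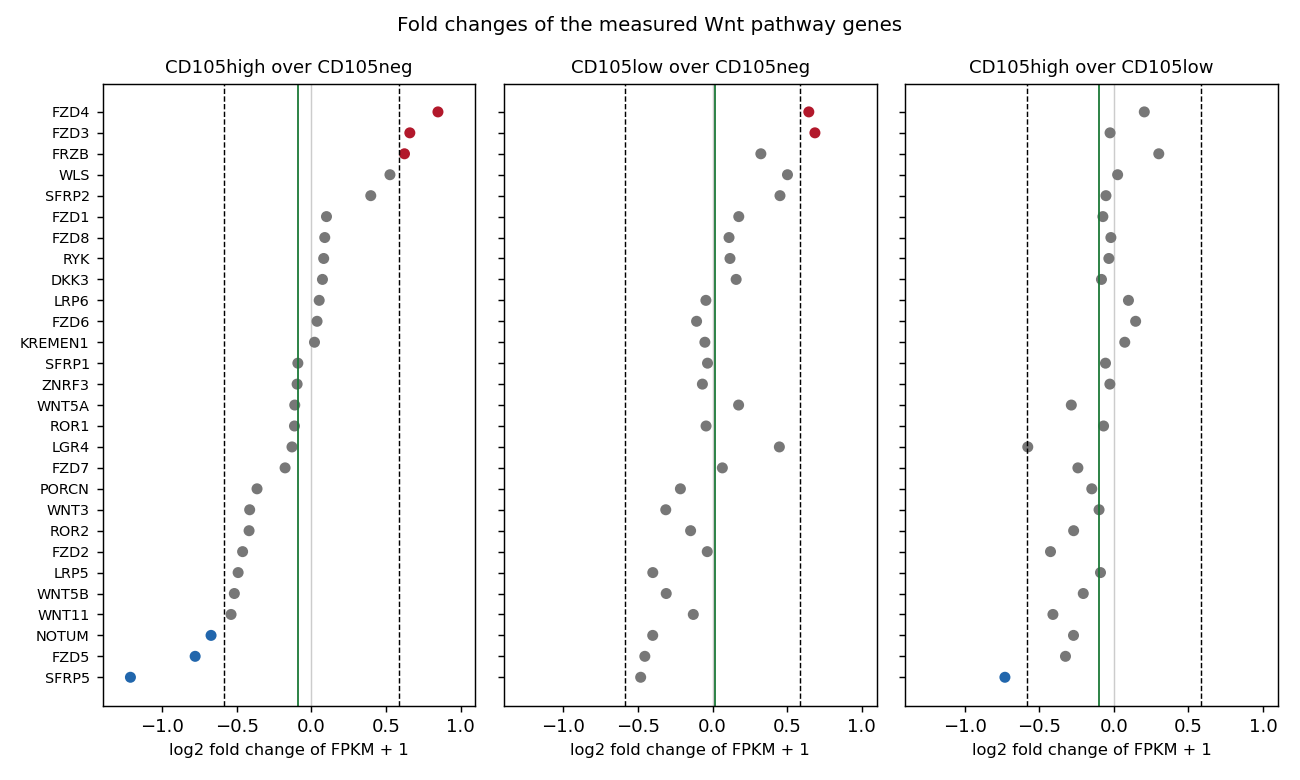
Log2 fold change of FPKM + 1 of the 28 measured Wnt pathway genes in the 3 comparisons, ordered by CD105high over CD105neg. Dashed lines mark 1.5-fold, the green line marks the median of all 11056 measured genes, and coloured points are past 1.5-fold: FZD4, FZD3 and FRZB on the right and SFRP5, FZD5 and NOTUM on the left of the first panel, FZD4 and FZD3 in the second and SFRP5 in the last.

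The CD105low library lay between the other 2 for 16 of the 28 measured genes, against 53.8% of all measured genes (5952 of 11056). Of these 16, 3 were ordered upwards with CD105 (FZD4, FRZB and WLS) and 13 downwards, among them SFRP5, FZD5, NOTUM, WNT11, WNT5B, WNT3, PORCN, ROR2 and LRP5. Over all measured genes 1937 were ordered upwards and 4015 downwards. CD105low was the highest library for 9 of the 28 and for 3916 of the 11056, and the lowest for 3 of the 28 and 1188 of the 11056, so the shares in the family were close to those over all measured genes.

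Promoter sequence is printed for 4 of the 6 genes past 1.5-fold in CD105high against CD105neg, and those of NOTUM and FZD3 are not printed. The windows run from 250 bases before to 50 bases after the RefSeq start, in GRCh38.p14, on the minus strand of chr11:86955346-86955645 for FZD4, chr2:182866588-182866887 for FRZB, chr2:207769857-207770156 for FZD5 and chr10:97771950-97772249 for SFRP5. Capitals mark matches on either strand. The letters searched were CTTTGA for TCF/LEF factors, CGGAAG for ETS factors, AGATAA for GATA factors and GGCGCC for the BMP-responsive element.
FZD4 promoter: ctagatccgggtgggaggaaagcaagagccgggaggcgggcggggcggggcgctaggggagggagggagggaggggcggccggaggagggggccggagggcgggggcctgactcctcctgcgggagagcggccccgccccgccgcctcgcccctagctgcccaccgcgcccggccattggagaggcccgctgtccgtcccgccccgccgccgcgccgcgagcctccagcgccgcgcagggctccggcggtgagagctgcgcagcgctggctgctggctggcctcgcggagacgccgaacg
FRZB promoter: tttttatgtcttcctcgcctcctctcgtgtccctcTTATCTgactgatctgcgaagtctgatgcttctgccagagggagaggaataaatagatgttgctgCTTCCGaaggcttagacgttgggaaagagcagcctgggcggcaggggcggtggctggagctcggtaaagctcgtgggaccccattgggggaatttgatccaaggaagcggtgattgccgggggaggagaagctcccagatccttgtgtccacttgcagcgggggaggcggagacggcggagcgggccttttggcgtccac
FZD5 promoter: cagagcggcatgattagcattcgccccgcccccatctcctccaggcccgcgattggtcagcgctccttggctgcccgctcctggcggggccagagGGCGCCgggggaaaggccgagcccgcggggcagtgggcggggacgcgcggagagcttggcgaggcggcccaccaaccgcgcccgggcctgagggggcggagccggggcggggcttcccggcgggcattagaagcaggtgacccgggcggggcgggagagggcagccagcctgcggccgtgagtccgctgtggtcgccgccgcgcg
SFRP5 promoter: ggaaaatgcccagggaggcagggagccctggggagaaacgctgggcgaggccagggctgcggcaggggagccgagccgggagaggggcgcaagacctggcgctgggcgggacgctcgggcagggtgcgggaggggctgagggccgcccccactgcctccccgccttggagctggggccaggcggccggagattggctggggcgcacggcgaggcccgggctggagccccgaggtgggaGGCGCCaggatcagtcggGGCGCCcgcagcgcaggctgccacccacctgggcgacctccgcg

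The FZD4, FZD5 and SFRP5 windows were rich in G and C, at 79.7%, 77% and 77.3%, and FRZB stood at 58.3%, where the median of all RefSeq promoters was 58.7%. FZD4 held none of the 4 motifs. FRZB held 1 ETS and 1 GATA match, FZD5 1 GGCGCC match and SFRP5 2. The TCF/LEF letters were in none of the 4 windows and in 12.9% of all 35116 promoters. Of the 17 measured genes with a promoter in the table, 1 (PORCN) held the TCF/LEF letters, 4 the ETS letters, 1 the GATA letters and 6 GGCGCC, where 19.5%, 10.3% and 19.2% of all promoters held the ETS, GATA and GGCGCC letters. The GGCGCC letters are themselves rich in G and C. A match describes the sequence and shows no binding.

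Downstream of the receptors, transcripts of the cytoplasmic pathway differed little between the libraries, which does not measure the activity of the pathway. Of the 24 listed genes of the destruction complex and Dishevelled, 23 were measured and 0 were 1.5-fold apart on the value + 1 scale in any of the 3 comparisons, with a median log2 fold change of CD105high against CD105neg of 0.03. CTNNB1, which encodes beta-catenin, stood at 250 FPKM in CD105high, 275 FPKM in CD105low and 273 FPKM in CD105neg. The widest of the list were DVL1, a Dishevelled gene, with 8.81 FPKM in CD105high, 11.1 FPKM in CD105low and 12.2 FPKM in CD105neg, and FRAT1, an inhibitor of GSK3, with 4.04 FPKM in CD105high, 3.07 FPKM in CD105low and 2.77 FPKM in CD105neg. The casein kinase gene CSNK1D and FRAT2 followed, with log2 fold changes of 0.35 and 0.31 in CD105high relative to CD105neg. In the list of nuclear effectors, 14 of 19 genes were analysed here and 14 measured. In CD105high against CD105neg 1 was higher and 0 were lower, where 5.57% and 6.68% of all measured genes were. The higher one was TLE2, a Groucho-type corepressor, with 3.14 FPKM in CD105high, 3.36 FPKM in CD105low and 1.58 FPKM in CD105neg. TLE1, TLE3 and AES had log2 fold changes of 0.52, -0.25 and 0.38. LEF1, TCF7, TCF7L1 and TCF7L2 were not analysed here.

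Genes often raised by beta-catenin showed no common direction. Of 27 listed, 11 were analysed here and 9 were measured. For CD105high against CD105neg 1 was higher and 1 was lower, where 5.57% and 6.68% of all measured genes were. The median was -0.17, against -0.09 over all measured genes. AXIN2, the feedback inhibitor widely used as a readout of the pathway, stood at 1.55 FPKM in CD105high, 1.42 FPKM in CD105low and 1.49 FPKM in CD105neg, although 40.8% of its sampled sequence also occurs in other annotated genes. NKD1, another feedback inhibitor, stood at 1.48 FPKM in CD105high, 2.03 FPKM in CD105low and 2.43 FPKM in CD105neg, and its homologue NKD2 at 1.74 FPKM in CD105high, 2.85 FPKM in CD105low and 2.82 FPKM in CD105neg. TNFRSF19, a TNF receptor family gene, was the lower one, at 1.59 FPKM in CD105high, 2.61 FPKM in CD105low and 4.89 FPKM in CD105neg. VCAN, the matrix proteoglycan versican, was the higher one, at 23.9 FPKM in CD105high, 19.7 FPKM in CD105low and 11.9 FPKM in CD105neg. CCND1, cyclin D1, stood at 68.6 FPKM in CD105high, 57.9 FPKM in CD105low and 47.8 FPKM in CD105neg, short of 1.5-fold. CCND1 and VCAN are also under many other inputs.

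Among 14 planar polarity genes, 12 were measured, of which 2 were higher and 1 was lower in CD105high than in CD105neg (median 0.04). Of all measured genes 5.57% were higher and 6.68% lower (median -0.09). PRICKLE2 stood at 4.44 FPKM in CD105high, 3.40 FPKM in CD105low and 1.76 FPKM in CD105neg, with 36.98% of its sampled sequence shared with other annotated genes, and DAAM1, a formin that acts below Dishevelled, at 60.5 FPKM in CD105high, 56.3 FPKM in CD105low and 37.6 FPKM in CD105neg. CELSR2, a cadherin of the polarity complex, was lower, at 1.83 FPKM in CD105high, 2.38 FPKM in CD105low and 3.56 FPKM in CD105neg. VANGL2 stood at 4.86 FPKM in CD105high, 6.07 FPKM in CD105low and 6.89 FPKM in CD105neg, short of 1.5-fold.

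Among other extracellular modulators, 20 of 25 genes analysed here were measured. The 5 further lists of Wnt pathway genes were chosen with earlier results of these data known. Of them, this one had the most genes past 1.5-fold between CD105high and CD105neg. In that comparison 6 were higher (HSPG2, IGFBP4, LYPD6, SOST, TRABD2A and GPC6) and 2 were lower (GPC3 and SDC1), with a median of 0.17. Over all measured genes 5.57% were higher and 6.68% lower, with a median of -0.09. HSPG2, the basement membrane proteoglycan perlecan, stood at 44.5 FPKM in CD105high, 36.1 FPKM in CD105low and 19.6 FPKM in CD105neg. IGFBP4, which binds insulin-like growth factors and can block Wnt receptors, stood at 131 FPKM in CD105high, 105 FPKM in CD105low and 71.7 FPKM in CD105neg. SOST, which encodes sclerostin, an inhibitor of LRP5 and LRP6 known from bone, stood at 83.9 FPKM in CD105high, 80.9 FPKM in CD105low and 49.3 FPKM in CD105neg, above every one of the 59 genes in each library. LYPD6, a membrane protein that promotes LRP6 signalling, stood at 4.11 FPKM in CD105high, 4.87 FPKM in CD105low and 1.87 FPKM in CD105neg. For CD105low against CD105neg 3 of the list were higher and 0 lower, against 4.11% and 1.99% of all measured genes. For CD105high against CD105low 0 were 1.5-fold apart, where 1.15% of all measured genes were higher and 2.2% lower.

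The FZD4 values, uncertain as they are, were not followed closely by its partner TSPAN12 in the norrin receptor. TSPAN12, the tetraspanin that works with FZD4, stood at 14.5 FPKM in CD105high, 15.0 FPKM in CD105low and 13.2 FPKM in CD105neg. The co-receptor gene LRP5 had the opposite order to FZD4, with a log2 fold change of -0.49 in CD105high relative to CD105neg. NDP, which encodes norrin, was at 0.0274 FPKM in CD105high and listed at 0 in both other libraries. ADGRA2 and RECK, which form a receptor for WNT7A and WNT7B on brain endothelium, had log2 fold changes of 0.22 and 0.09 in CD105high relative to CD105neg, with 26.3 and 21.4 FPKM in CD105high. WNT7A and WNT7B themselves reached at most 0.00645 FPKM.

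**Figure D4:**
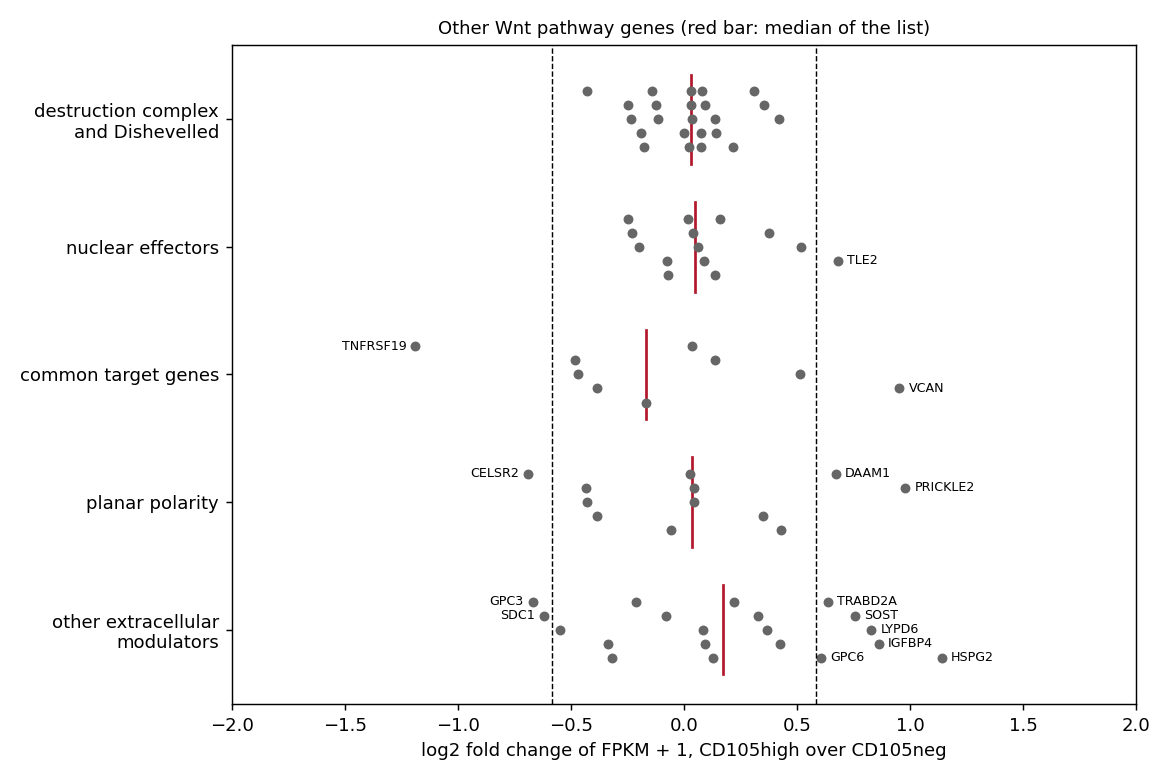
Log2 fold change of FPKM + 1 for CD105high over CD105neg of the measured genes in 5 other lists of Wnt pathway genes, with 1 point per gene, a red bar at each list's median and dashed lines at 1.5-fold. None of the 23 genes of the destruction complex and Dishevelled is past 1.5-fold, whereas 8 of the 20 other extracellular modulators are. Over all measured genes 5.57% are higher and 6.68% lower. The lists were chosen with earlier results of these data known.

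Markers of other cell types were compared beside these genes. Of all measured genes, 5.57% were higher and 6.68% lower in CD105high against CD105neg (median -0.09). For CD105high against CD105neg, 9 of 12 measured endothelial markers were higher and 0 lower (median 0.74), with the widest differences at ROBO4, VWF, EMCN and CDH5. Of 10 measured mesenchymal and mural markers 1 was higher (THY1, log2 fold change 0.75) and 4 were lower (median -0.24). The widest were the 4 lower ones, PDGFRB, COL1A1, COL3A1 and TAGLN. ACTA2 (0.23) and PDGFRA (0.16) were also above 0, while COL1A2 (-0.29), CNN1 (-0.19) and RGS5 (-0.03) were below 0. Of 9 erythroid and megakaryocyte markers 8 were lower and 0 higher (median -1.73), with the widest at HBE1, GYPB, RHAG and HBG2. In the pluripotent and epithelial list 1 of 6 was lower (CDH1) and 0 were higher (median -0.39). DNMT3B, TDGF1 and EPCAM were the next widest, all below 0, while PODXL (0.31) and DPPA4 (0.01) were above 0. In the endoderm list 1 of 3 was higher (CER1) and 2 were lower (APOA1 and APOA2). In the mesoderm and cardiac list 0 of 3 (MYL7, ACTC1 and BMP4) were 1.5-fold apart. At least 10% of the sampled sequence of ROBO4, TAGLN, ACTA2, PDGFRA, TDGF1, HBE1, GYPB and HBG2 also occurs in other annotated genes. The same holds for AES, CSNK1D, HSPG2 and ADGRA2 above. The part of these cell types in the values of the Wnt genes was not tested.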

How the data were processed

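RNA-seq of 3 groups with 1 library each was analysed. Per the labels' protocols, a TruSeq RNA kit and 2 ug of total RNA served for each library; that kit leaves the strand unmarked. BWA, Bowtie, RSEM and hg19 stand in the submitters' processing notes, without versions or roles. No annotation is named there. The deposited values were treated as FPKM as the authors made them, since they are not whole and sum to far less than TPM would, although no header names the unit. The value column of the CD105neg library is headed as CD105 positive; its group was taken from the sample's title.

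Here the log2 fold change of value + 1 was computed, which understates the change of low genes, for genes with a mean of at least 1 FPKM, and genes at least 1.5-fold apart were counted. No test was possible. The computation was run on simulated data without noise, which checks the arithmetic and not the spread between libraries. Members and lists were chosen with earlier results of these data known. All measured members, the gate genes, up to 4 widest genes of each list and AXIN2, NKD1, TSPAN12, CTNNB1 and CCND1 were named. The others were chosen after their values were seen: the remaining genes past 1.5-fold among the extracellular modulators, ADGRA2, RECK, NDP, DCN and the overlapping genes PRSS23, ST7L and PKMYT1. The same holds for the measured mesenchymal and mural markers beyond the 4 widest, and for PODXL and DPPA4. Exonic overlaps and shared 50-base pieces, taken every 40 bases, came from GENCODE 29, in which all 59 members were matched; promoters came from RefSeq, with 40 members matched. Python 3.11.15, pandas 2.3.3 and numpy 2.4.6 were used.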

Additional observations from a re-analysis of the deposited data

How the results depend on the processing

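With 1 library per group, no library could be left out and no paired analysis was possible because no group has a replicate. The counts of measured Wnt genes past 1.5-fold were small and moved with the settings. For CD105high against CD105neg (3 higher, 3 lower), a pseudocount of 0.1 gave 5 lower (WNT5B and LRP5 added), a pseudocount of 5 gave 1 higher (FZD4) and 0 lower, and a 2-fold threshold gave 0 higher and 1 lower (SFRP5). For CD105low against CD105neg (2 higher, 0 lower), a pseudocount of 0.1 gave 1 lower (SFRP5), while a pseudocount of 5 and a 2-fold threshold each gave 0 higher. Without FZD4, which overlaps PRSS23, 1 was higher, a setting chosen after seeing the data. For CD105high against CD105low (1 lower), a pseudocount of 0.1 gave 2 lower (LGR4 added), and a pseudocount of 5 and a 2-fold threshold each gave 0. With no filter, CD105low lay in between for 25 of 59 genes. No fold change past 1.5-fold turned its sign under either pseudocount or centring, which is no check. A pseudocount cannot turn a sign, and the shifts from centring were smaller than 1.5-fold. A larger pseudocount shrinks the fold change of low genes by construction. Depth in reads is unknown, so differences among genes below 1 FPKM cannot be judged.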
